A study of Arabidopsis thaliana with 6 samples.

Results

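The 57 probe sets described here stood higher after 4 h of dexamethasone than on every untreated and 1 h array, in lateral root cap cells of Arabidopsis thaliana. They were chosen from the 22746 probe sets of the array that are not controls. The rule takes x, the log2 of the deposited intensity plus 16. It asks that the lower x of both 4 h arrays exceed the highest x of the other 4 arrays by 0.8 or more and that both 4 h intensities be 100 or more. Of the 63 probe sets that met it (0.277%), 6 were left out by name. A seventh name left out did not meet it (margin 0.52). The names include CHIL of the flavonoid pathway, and the 6 that met the rule had wider margins (up to 2.76) than any member (up to 1.63). The 4 h intensities thus chose the members, and the members' differences that involve 4 h are given as a description, with no test read from them. Without 1 h replicate 1 the rule finds 122 probe sets, without 4 h replicate 1 it finds 124, and without untreated replicate 1 it finds 86. With an array left out the rule has fewer arrays to satisfy. The count can then only stay or rise, and all 57 members remain.

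Each of the 6 samples was RNA of sorted cells from seedling roots in the C24 background, grown for 5 days and hybridised to 1 Affymetrix ATH1 array. All 3 groups carried the J2632-UAS::ARR1ΔDDK-GR transgene, in which the J2632 enhancer trap drives ARR1 without its receiver part, fused to the glucocorticoid receptor. The groups were untreated seedlings, seedlings after 1 h of dexamethasone and seedlings after 4 h of dexamethasone, with 2 biological replicates each. No group without the transgene was among the samples and no time-matched control for 4 h, so the agent, the fusion protein and the hours passed cannot be told apart. The array was designed on another ecotype.

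The lateral root cap is the outermost tissue of the root tip, whose cells are renewed from the meristem and later die or detach. ARR1 is a type-B response regulator, a transcription factor that cytokinin signalling activates by phosphorylating its receiver domain. Without that domain it is active wherever it reaches the nucleus, and the fused glucocorticoid receptor holds it in the cytoplasm until dexamethasone binds. In such systems direct targets are sought at early times, while later times also take in effects that follow from the first wave.

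Background was set at the 95th percentile of 27 Bacillus subtilis control probe sets, and 58.1% to 67.8% of the probe sets lay above it on an array. Log2 signals correlated at 0.957 within the untreated pair, 0.958 within the 1 h pair and 0.972 within the 4 h pair, against 0.953 to 0.969 between groups. Only 2 of 7 lateral root cap markers had a named probe set, the polygalacturonase AT1G65570 and the carboxypeptidase-like scpl48. Their summed intensity was 4494 and 4612 in untreated cells, 6705 and 5471 at 1 h and 3358 and 3395 at 4 h, so it was lowest on the 4 h arrays. The sum follows scpl48, which measured 3852 and 3841 untreated, 5155 and 3932 at 1 h and 2380 and 2689 at 4 h. AT1G65570 measured 643 and 771 untreated, 1550 and 1539 at 1 h and 978 and 706 at 4 h, so its 4 h arrays overlapped the untreated ones. In RNA from many cells, fewer cells of a type and less RNA per cell cannot be told apart. The 7 measured markers of other cell types (root hair, cortex, endodermis, quiescent centre and green tissue) never exceeded 77.3, and 0 of 7 lay above background on all arrays. Their sum was 196 and 187 untreated, 188 and 223 at 1 h and 185 and 209 at 4 h. Of the 3 columella and 7 stele markers listed, 0 had a named probe set, so these types could not be checked. The signal of 25S ribosomal RNA was 8221 and 9688 untreated, 7668 and 10831 at 1 h and 6422 and 6680 at 4 h. The part of the root cap markers and of the ribosomal RNA control in the members' difference was not tested.

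Of the 57 members, 26 carry 1 gene in the platform annotation, 2 carry several and 29 are not listed and are given by their identifier. Their margins over the other 4 arrays ran from 0.806 to 1.63, with a median of 0.97, and 25 members had a margin of 1.0 or more. The median log2 difference was 1.42 for 4 h against untreated (range 0.99 to 2.56) and 1.34 for 4 h against 1 h (range 0.86 to 3.53). Over all probe sets the corresponding medians were -0.01 and 0.00. On every array at 4 h all 57 members exceeded background; 51 did so on all 6 arrays. The 4 h replicates lay close together, with a median ratio of the higher to the lower of 1.1 and a highest ratio of 1.52.

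**Figure D1:**
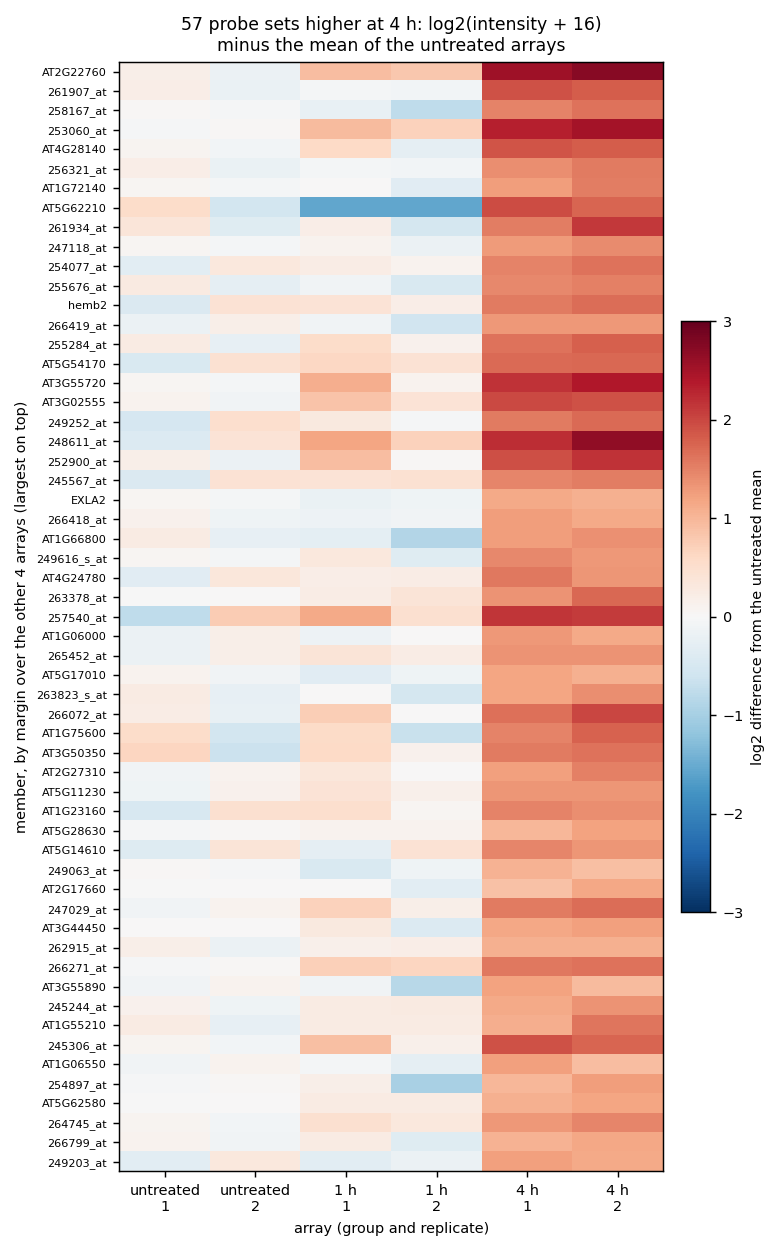
Log2(intensity + 16) of the 57 members on each of the 6 arrays (columns), minus the mean of both untreated arrays, with members ordered by their margin from the top. The 4 h columns are red throughout because the rule chose them; the 1 h columns differ among members, with AT5G62210 furthest below untreated.

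Among the members with a known regulatory role, the widest margin belonged to AT2G22760, which encodes a basic helix-loop-helix transcription factor. Its intensity was 64 and 46.8 on the untreated arrays, 118 and 109 at 1 h and 399 and 458 at 4 h. The 3 pairs of arrays were stepped without overlap, and the log2 difference of 4 h from untreated was 2.56 (SE 0.24). AT4G28140, of the AP2/ERF family of transcription factors, measured 92.3 and 81.0 untreated, 139 and 69.6 at 1 h and 366 and 344 at 4 h. Its 1 h arrays lay on either side of the untreated pair, and 4 h differed from untreated by 1.81 (SE 0.33).

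AT3G44450 encodes a blue-light inhibitor of cryptochromes, a small protein that keeps these photoreceptors inactive. It measured 148 and 148 untreated, 184 and 107 at 1 h and 349 and 369 at 4 h, and 4 h differed from untreated by 1.19 (SE 0.29). The F-box gene AT2G27310 measured 382 and 439 untreated, 521 and 415 at 1 h and 987 and 1204 at 4 h. F-box proteins choose substrates for degradation, and this one differed by 1.39 (SE 0.25) with 1 h overlapping untreated. AT1G75600, a gene of the histone H3 family, measured 188 and 78.3 untreated, 191 and 71.2 at 1 h and 374 and 456 at 4 h. The replicates of its lower groups differed more than 2-fold, so its difference of 1.61 had the largest standard error of the named members (0.53). It was 1.03 without untreated replicate 2.

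AT5G14610, a DEAD-box RNA helicase gene, measured 27.5 and 57.7 untreated, 31.3 and 60.6 at 1 h and 140 and 126 at 4 h. It exceeded background on only 2 of the 4 untreated and 1 h arrays, so its difference of 1.34 (SE 0.37) rests on values close to background and was 0.87 with a pseudocount of 64. AT2G17660, of the RIN4 family named after a guard protein of plant immunity, measured 109 and 110 untreated, 110 and 85.3 at 1 h and 216 and 265 at 4 h. With 0.99 (SE 0.24) it had the smallest difference of all members from untreated.

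**Figure D2:**
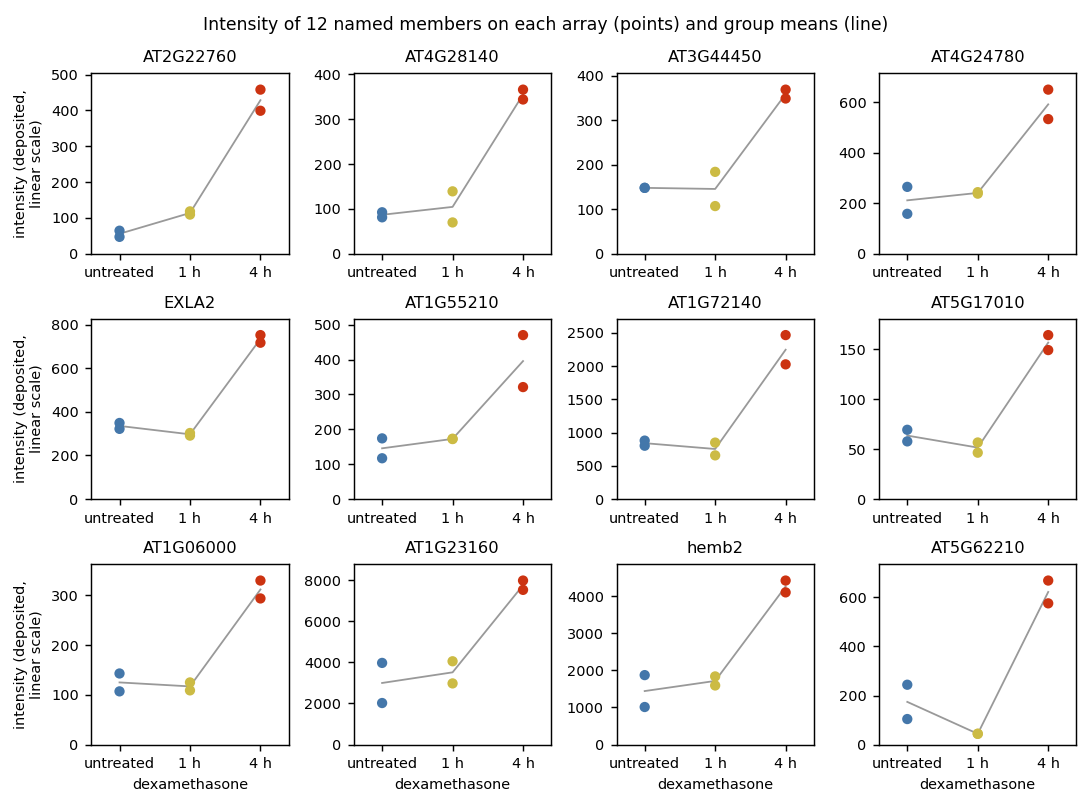
Deposited intensity (linear scale, each panel with its own axis from 0) of 12 named members by hours of dexamethasone; points are arrays and the line joins group means. AT2G22760 is stepped, EXLA2 and AT5G17010 are slightly lower at 1 h than untreated, and AT5G62210 is lowest at 1 h.

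Members that act at the cell wall or are secreted formed the next group. EXLA2, an expansin-like protein related to the expansins that loosen walls, measured 349 and 322 untreated, 291 and 303 at 1 h and 752 and 717 at 4 h. Both 1 h arrays lay below both untreated arrays, and 4 h differed from untreated by 1.12 (SE 0.22). The pectate lyase gene AT4G24780, whose product cleaves pectin, measured 158 and 265 untreated, 238 and 244 at 1 h and 651 and 534 at 4 h. Untreated and 1 h overlapped, with 4 h differing from untreated by 1.46 (SE 0.27). AT1G55210 encodes a dirigent protein, a class that steers the coupling of phenolic radicals. It measured 174 and 117 untreated, 173 and 172 at 1 h and 321 and 470 at 4 h, a difference of 1.34 (SE 0.31). The 4 h arrays of this gene differed more than for most members.

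AT5G62210, of the embryo-specific protein 3 family, had the strongest dip. It measured 244 and 104 untreated, 43.6 and 44.1 at 1 h and 669 and 576 at 4 h. The 3 pairs did not overlap: 1 h was the lowest and lay below background on 1 of its arrays. The log2 difference was 1.84 (SE 0.40) for 4 h against untreated and 3.53 (SE 0.40) for 4 h against 1 h. AT5G28630, encoding a glycine-rich protein, was tighter, with 1101 and 1152 untreated, 1215 and 1212 at 1 h and 2263 and 2605 at 4 h. Its 1 h arrays lay just above the untreated ones, and 4 h differed from untreated by 1.09 (SE 0.22).

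The 3 transporter genes had flat or lower levels at 1 h in 2 cases. AT1G72140, of the NRT1/PTR family that carries nitrate, peptides and other solutes, measured 879 and 802 untreated, 849 and 657 at 1 h and 2025 and 2465 at 4 h. Its difference of 4 h from untreated was 1.42 (SE 0.25). AT5G17010, a sugar transporter-like gene, was higher at 4 h by 1.05 (SE 0.24), with 69.3 and 57.7 untreated, 46.4 and 56.6 at 1 h and 164 and 149 at 4 h. Here both 1 h arrays lay below the untreated pair. AT5G11230, of the nucleotide-sugar and triose-phosphate translocator family, instead had both 1 h arrays above it. The values were 182 and 221 untreated, 274 and 226 at 1 h and 523 and 525 at 4 h, a difference of 1.32 (SE 0.23).

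Metabolic enzymes made up the largest group of members with a known role beside the regulators. AT1G06000 encodes the flavonol 7-O-rhamnosyltransferase UGT89C1, which adds a sugar to flavonols. It measured 107 and 143 untreated, 109 and 125 at 1 h and 330 and 294 at 4 h, a difference of 1.22 (SE 0.23) with 1 h inside the untreated range. It was the only member among the 138 genes listed on cytokinin, auxin, phenylpropanoids, cell wall, stress, clock, sugar starvation and cell death, of which 30 had a named probe set. In its own list, on the flavonoid pathway beyond the names left out, 8 of 25 genes were measured, with AT1G06000 among them. Only 4 of the 8 exceeded background on all arrays, and 2 did so on none. The median difference of the 8 was 0.41 for 4 h against untreated. It lay between UGT78D1 with 0.39 and AT4G14090 with 0.43, the 2 genes above background on no array. UGT78D2, a flavonoid 3-O-glucosyltransferase, measured 152 and 182 untreated, 149 and 167 at 1 h and 327 and 292 at 4 h. That gene fell short of the margin with 0.64, and its difference of 0.84 (SE 0.22) had a limma adjusted p of 0.356. UF3GT and DFR, which act in anthocyanin synthesis, differed by -0.43 and -0.44 (adjusted p = 0.680 and 0.644 in limma). No gene of this list passed in either direction in any contrast.

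The porphobilinogen synthase gene hemb2, of tetrapyrrole synthesis, measured 1012 and 1872 untreated, 1837 and 1593 at 1 h and 4103 and 4422 at 4 h. The difference was 1.64 (SE 0.34). HEMB1, which encodes the same enzyme, measured 659 and 573 untreated, 887 and 792 at 1 h and 598 and 754 at 4 h, and its 4 h arrays overlapped the others. AT1G66800, of the cinnamyl alcohol dehydrogenase-like family, had both 1 h arrays below untreated: 961 and 680 untreated, 656 and 436 at 1 h, 1938 and 2110 at 4 h. Its difference of 4 h from untreated was 1.33 (SE 0.30), and of 4 h from 1 h 1.87 (SE 0.30).

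AT1G23160 belongs to the GH3 family, acyl acid amido synthetases of which some conjugate auxin. It measured 2019 and 3970 untreated, 4050 and 2973 at 1 h and 7976 and 7523 at 4 h. The untreated arrays were far apart and spanned the lower 1 h array, so the difference of 1.40 carried an SE of 0.39. It was 0.85 without untreated replicate 1. AT1G06550, of the enoyl-CoA hydratase family, measured 78.2 and 94.2 untreated, 81.5 and 68.0 at 1 h and 223 and 179 at 4 h, a difference of 1.05 (SE 0.23). AT5G54170, encoding a protein of the lipid-binding START and polyketide cyclase fold, differed by 1.71 (SE 0.31), with 111 and 225 untreated, 251 and 222 at 1 h and 550 and 563 at 4 h. For both genes 1 h overlapped untreated.

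The 5 other named members have a looser or no known role. AT3G55890, a Yippee-like gene, measured 55.9 and 67.3 untreated, 56.2 and 27.5 at 1 h and 162 and 134 at 4 h, with 1 h replicate 2 below background. AT5G62580, whose product has ARM repeats, measured 1016 and 1023 untreated, 1221 and 1215 at 1 h and 2166 and 2352 at 4 h. Their differences of 4 h from untreated were 1.02 (SE 0.28) and 1.15 (SE 0.21). For the other 3 no role is given here, and 4 h differed from untreated by 2.31 (SE 0.36) for AT3G55720, 1.95 (SE 0.26) for AT3G02555 and 1.59 (SE 0.44) for AT3G50350. AT3G55720 measured 383 and 351 untreated, 802 and 397 at 1 h and 1710 and 2021 at 4 h. AT3G02555 measured 231 and 198 untreated, 398 and 289 at 1 h and 891 and 848 at 4 h, so both genes had all 1 h arrays above untreated. AT3G50350 did not, with 287 and 110 untreated, 279 and 199 at 1 h and 555 and 585 at 4 h. Its difference was 0.94 without untreated replicate 2 and 2.23 without untreated replicate 1.

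The 31 members without a named gene had a median difference of 4 h from untreated of 1.49, against 1.36 for the 26 named ones. The 5 with the widest margins were 261907_at, 258167_at, 253060_at, 256321_at and 261934_at. 261907_at measured 59.1 and 41.4 untreated, 47.3 and 45.6 at 1 h and 232 and 215 at 4 h, with 1 h replicate 2 below background. For 258167_at the values were 39.5 and 37.5, 30.4 and 16.2, and 138 and 153 in the same order of times. It was the only member below background on both arrays of a group, at 1 h, and was at least 2.88-fold higher at 4 h than at 1 h. The bound sets the mean of 4 h against the lowest level that exceeded background on each 1 h array.

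The stepped pattern of AT2G22760 was also that of 253060_at, with 371 and 388 untreated, 753 and 622 at 1 h and 1967 and 2232 at 4 h. 256321_at was flat before 4 h, with 187 and 139 untreated, 153 and 151 at 1 h and 449 and 503 at 4 h. 261934_at measured 899 and 545 untreated, 810 and 480 at 1 h and 2053 and 3117 at 4 h, the most unequal 4 h pair among the members. The 20 without a gene name that are not given singly lay between 145 and 2925 at 4 h and between 25.3 and 1216 on the other 4 arrays, with differences of 4 h from untreated of 1.00 to 2.02.

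At the edge of the rule the last members inside were 264745_at, 266799_at and 249203_at, with margins of 0.808, 0.808 and 0.806. The next probe sets outside were 263904_at, 263539_at and AT4G38940, with 0.796, 0.792 and 0.791. The margins ran on without a break across the edge. Another 12 probe sets passed the margin but were below 100 on a 4 h array.

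The comparison of 1 h with untreated was the contrast that the rule did not set directly, since it treats these 4 arrays alike. The rule still left out any probe set with a 1 h or an untreated array within 0.8 of its lower 4 h array. The choice thus caps the 1 h and the untreated levels of the members alike and sets no floor under either. Their median log2 difference was 0.12, against 0.00 over all probe sets and -0.01 over the 8889 that were at 100 or more on both 4 h arrays. It depended on 1 h replicate 1: without that array the median was 0.00, and without 1 h replicate 2 it was 0.26. The normalization moved it too, to 0.02 with median centring. With no further normalization it was 0.17, against 0.05 over all probe sets. 1 h replicate 1 also held the highest of the other 4 values for 27 of the 57 members, a share that was not computed over all probe sets. This array had the highest 3' to 5' ratio of the GAPDH control, a sign of RNA quality. That ratio was 3.11 and 3.41 untreated, 4.65 and 3.26 at 1 h and 3.15 and 4.32 at 4 h. Its part in the members' 1 h values was not tested.

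In the limma fit 0 of 57 members passed at an adjusted p under 0.05, as did 0 of all 22746 probe sets (0%). At an unadjusted p under 0.05 there were 7 of 57 members (12.3%), against 1314 of all probe sets (5.78%), with 5 members higher at 1 h (2.95% of all probe sets) and 2 lower (2.83%). The difference was above 0 in 31 members (54.4%), against 49.6% of all probe sets. The highest differences were those of 248611_at with 0.88 (SE 0.34), 253060_at with 0.86 (SE 0.23) and 257540_at with 0.77 (SE 0.49), with limma adjusted p of 0.836, 0.763 and 0.920. The 1 h and untreated arrays of 257540_at overlapped, at 180 and 108 for 1 h and 36.4 and 135 for untreated. AT2G22760 differed by 0.74 (SE 0.24, limma adjusted p = 0.785). The lowest were AT5G62210 with -1.68 (SE 0.40), 258167_at with -0.66 (SE 0.24) and AT3G55890 with -0.62 (SE 0.28), with limma adjusted p of 0.759, 0.825 and 0.882.

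In 15 of the 57 members (26.3%) both 1 h arrays lay above both untreated arrays, a share that was 19.4% over all probe sets and 13.6% over those at 100 or more at 4 h. In 6 members (10.5%) both lay below, against 12.5% and 15.3%. The other 36 overlapped, as did 68.1% of all probe sets. No test was made of these shares. As a description, the 1 h level was placed between untreated (0%) and 4 h (100%) on the log2 scale, without further normalization. The median over the members was 9.68%, with 25 members below 0%, 25 between 0% and 30% and 7 above 30%. On this scale the median 1 h difference was 0.17 over the members and 0.05 over all probe sets. With median centring the members' median difference was 0.02, so these positions depend on the normalization. No such percentage was computed over all probe sets. AT5G62210 had the lowest value (-84.5%), and 266271_at, named after its values were seen, the highest (42.5%), with 688 and 718 untreated, 1169 and 1101 at 1 h and 2121 and 2194 at 4 h. The upper end of these percentages is bounded by the rule, which keeps every 1 h array at least 0.8 below the lower 4 h array.

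**Figure D3:**
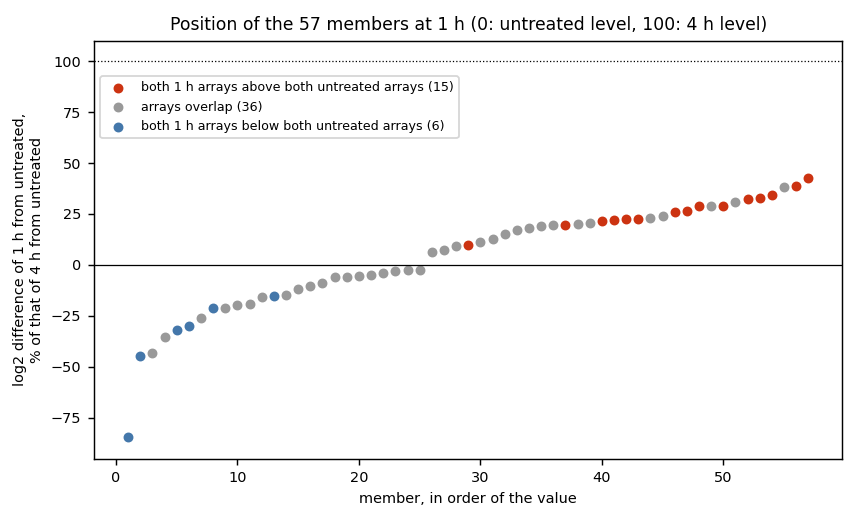
Log2 difference of 1 h from untreated as a percentage of that of 4 h from untreated (vertical axis) for the 57 members in order; colours mark whether both 1 h arrays lay above (15), overlapped (36) or lay below (6) the untreated arrays. Values run from -84.5% to 42.5%.

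By the same fit, and read for nothing because the rule used these contrasts, 0 of 57 members passed at 4 h against untreated, where 0.0044% of all probe sets did, and 0 of 57 at 4 h against 1 h, where 0.022% did. At an unadjusted p under 0.05 all 57 were higher in each contrast, as were 4.91% and 4.68% of all probe sets. The rule applied to the other groups found fewer probe sets. The 1 h arrays stood above the other 4 in 7 and below in 2, and the untreated arrays stood above in 0 and below in 5. The 4 h arrays stood below the other 4 in 44.

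Family relatives of 8 named members, listed after the members' values were seen, were read beside them. Of the 22 with a probe set, 7 had both 4 h arrays above the other 4, against 10.3% of all probe sets, and 0 met the rule. Their median difference of 4 h from untreated was 0.11, and 0 passed in limma at an adjusted p under 0.05. This median includes 2 relatives below background on all arrays, AT5G63180 and UGT78D1. EXLA1, an expansin-like protein as EXLA2 is, measured 1952 and 1756 untreated, 2445 and 1718 at 1 h and 3367 and 3466 at 4 h. Its 4 h arrays lay above the others (difference 0.89, SE 0.26, limma adjusted p = 0.404), whereas EXLB1, below background on the 1 h and 4 h arrays, differed by -0.59 (SE 0.22, adjusted p = 0.501 in limma).

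AT3G52740, the other blue-light inhibitor of cryptochromes, measured 211 and 190 untreated, 176 and 220 at 1 h and 302 and 371 at 4 h, with a difference of 0.70 (SE 0.25, limma adjusted p = 0.463). GH3.17, which conjugates auxin to glutamate, was the relative closest to the margin, at 0.71. GH3.3, below background on both 4 h arrays, differed the other way by -1.06 (SE 0.34, limma adjusted p = 0.441). The remaining relatives with both 4 h arrays above the other 4 were UGT78D2, GH3.1 and the pectate lyase genes AT5G48900 and AT4G13710, by margins of 0.64, 0.03, 0.33 and 0.41. Of the 2 bHLH genes that flank AT2G22760, NAI1, a regulator of endoplasmic reticulum bodies, had both 4 h arrays among the others and differed by 0.07 (SE 0.29). AT2G22750 exceeded background on only 1 array, 4 h replicate 2, and gives no usable difference. The NRT1/PTR genes beside AT1G72140 differed by -0.17 (SE 0.32) for AT1G72125 and -0.39 (SE 0.48) for AT1G72130, which exceeded background on 2 of 6 arrays.

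Protein-coding genes up to 3 places from a named member, with members left out, gave 71 measured neighbours. Their median difference of 4 h from untreated was -0.01, and 68 of the 71 lay within 1 log2 unit of untreated. The share within 1 log2 unit over all probe sets was not computed. Only 31 of the 71 exceeded background on all arrays, and the median of these was 0.13. In 10 of the 71 (14.1%) both 4 h arrays were above the other 4, against 10.3% of all probe sets, and 0 passed in limma. The 3 beyond 1 log2 unit were AT4G28150 beside AT4G28140, AT5G62620 near AT5G62580 and AT4G24790 beside AT4G24780, with 1.67, 1.29 and 1.14 (limma adjusted p = 0.235, 0.297 and 0.291). AT4G28150 measured 15.5 and 12.1 untreated, 51.5 and 59.1 at 1 h and 77.3 and 82.7 at 4 h, stepped as AT2G22760 was but below background when untreated. AT4G24790 measured 37.3 and 38.9 untreated, 48.8 and 58.7 at 1 h and 101 and 121 at 4 h. AT5G62620 measured 285 and 261 untreated, 484 and 330 at 1 h and 644 and 719 at 4 h. Whether a transcript of a member reads on a neighbour's probe set was not tested.

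**Figure D4:**
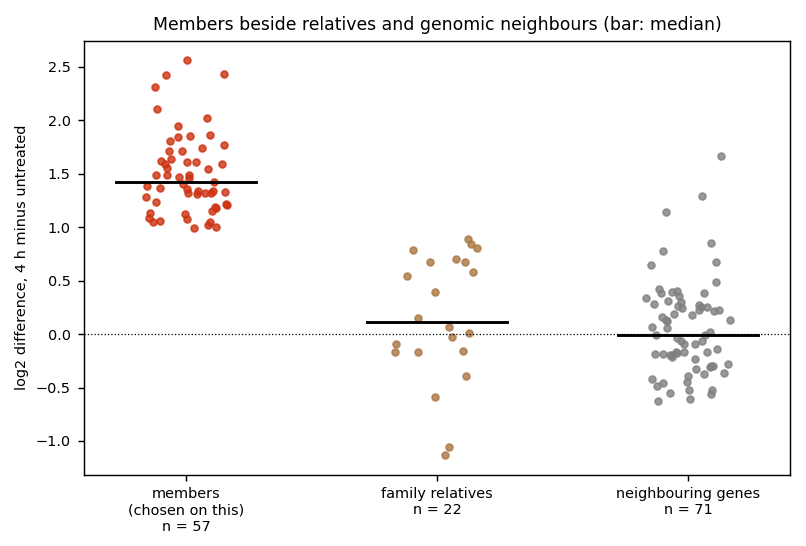
Log2 difference of 4 h minus untreated for the 57 members (chosen on it), 22 family relatives and 71 genomic neighbours of named members; each point is a probe set and bars are medians (1.42, 0.11 and -0.01). Relatives spread from -1.13 to 0.89, and 3 neighbours exceed 1. The lowest relative, AT5G63180, was below background on all arrays.

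The lists on other processes held 0 members beside AT1G06000, and none of their genes passed at 4 h against untreated or against 1 h. The 6 measured genes of the list on auxin conjugation and transport, none of them a transporter gene, had a median difference of 4 h from untreated of 0.65. Of these 6, 4 exceeded background on all arrays. The median lay between AT1G14130 with 0.53 and AT1G14120 with 0.78, and AT1G14120 exceeded background on no array. GH3.17 differed by 0.81 (SE 0.23) and GH3.1 by 0.79 (SE 0.37), while GH3.3 differed by -1.06. The 4 wall-loosening genes had a median difference of 4 h of 0.62 from untreated and 0.21 from 1 h. XTH18 differed from untreated by 1.00 (SE 0.26), and its 1 h and 4 h arrays overlapped. The 3 genes of root cap cell death, AT4G04460, AT4G18425 and AT2G14095, had a median difference of 4 h from untreated of -0.09. The type-A response regulators, early targets of cytokinin signalling, could be followed only through ARR15 and RR16, which differed by -0.10 (SE 0.61) and 0.27 (SE 0.39). Neither exceeded background on an untreated array, and RR16 did not on a 4 h array, so neither gives a usable difference. Of the cytokinin genes, RR18 and UGT76C1 exceeded background on no array, and UGT76C2 differed by -0.36 and exceeded it on 4 of 6. The differences were -0.23 for HCT of phenylpropanoid synthesis, 0.34 for the clock gene GI, and 0.04 and 0.25 for the stress genes STZ and GSTU25. Adjusted p in limma for 4 h against untreated ranged from 0.356 to 0.986 over the listed genes that were no members.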

How the data were processed

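RNA of 6 samples was measured on Affymetrix ATH1 arrays after 2 rounds of labelling, per the labels' protocols, which name either protoplasted cells or root tissue; the sample descriptions say sorted cells. The deposited table holds linear intensity values, 1 for each probe set of each array; the summarising software is not given in the sources used here. With 2% trimmed from either end, every deposited column averaged 250.03, so arrays had been scaled before deposit. The rule was applied to log2(intensity + 16) as deposited. For the fit these values were quantile normalized, since column medians spanned 0.215 (limit 0.1). Group means were estimated from the 6 arrays together in limma 3.58.1 (R 4.3.3; p-values two-sided, Benjamini-Hochberg over 22746 probe sets, threshold 0.05; SE from this fit). With 2 arrays per group the number of arrays limits the precision. The labels call the replicates biological and say no more about their origin. The fit was checked on simulated arrays.

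Gene names came from the 2016 platform annotation, updated through RefSeq TAIR10.1 (13436 probe sets with 1 gene and a locus, 503 with several genes, 8730 not listed); a locus with several probe sets is represented by the brightest. Named were all members with 1 gene (up to 30), the 5 others with the widest margins, 3 probe sets on each side of the edge, the 3 highest and lowest members at 1 h, and up to 3 genes per list. Members and lists were chosen with earlier results of these data known. The sugar starvation list had no measured gene. Promoter and protein sequences were not used here, so the planned motif counts were not made. Alternatives were the normalization, pseudocount, a filter on dim probe sets, the prior variance, a replicate block and leaving out each array.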

Additional observations from a re-analysis of the deposited data

How the results depend on the processing

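The count of 57 members depended on the rule's settings. It was 37 with a pseudocount of 64, 25 with a margin of 1.0 and 179 with a margin of 0.5, and it stayed within 1.5 times under the other settings (quantile normalized values, 53, of which 51 are shared). Leaving out 1 array gave 65 to 124, each time with all 57 members, since the count cannot fall with fewer arrays to satisfy. The count of 0 calls at 1 h, over members and over all probe sets, was the same under all 13 alternatives. The medians of the members in all 3 contrasts stayed the same to within the residual spread. Leaving out 1 array moved the median of 1 h against untreated between 0.00 and 0.26, and median centring moved it to 0.02. Of 676 values of named members in the 4 h contrasts under these alternatives, 66 moved by more than the residual SD; that all stayed above 0 follows from the rule. The labels do not say whether replicate numbers pair the samples. The deviations of replicate 1 correlated at 0.117, -0.019 and -0.042 between groups, which cannot show how the samples were handled. With the replicate block 0 members were called at 1 h and their median stayed at 0.12. A count of 0 calls with 2 arrays a group does not show that early differences are absent. The array's signal over background limits 261907_at, 258167_at, AT5G62210, AT5G14610, AT3G55890 and 254897_at, the 6 members not above it on all arrays.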
